A study of Homo sapiens with 26 samples.

Results

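The histone cluster genes encode the H1, H2A, H2B, H3 and H4 proteins, and their transcripts were followed here in input RNA from the human melanoma line SK-MEL-28. The rows were taken by a symbol pattern, and this choice was made with earlier results of these data known. Of 55353 gene rows in the input tables, 61 carry a numbered histone cluster symbol. These are 10 for H1, 15 for H2A, 14 for H2B, 12 for H3 and 10 for H4. Treated cells had 72 h of salubrinal, an agent that keeps eIF2α phosphorylated and thereby switches on the integrated stress response (ISR), and control cells had none. Cells of both treatments were given cycloheximide, which stalls ribosomes on mRNA, at 100 µg/mL for 12 min before lysis, per the protocol entered for all 26 samples. Each treatment gave 1 input library of total RNA, with 10245548 counts on gene rows for salubrinal and 12068784 for control, so no test could be made between them, and all intervals are exact 95% binomial intervals that cover counting error only. The other 24 samples are sucrose gradient fractions of the same 2 treatments (40S, 60S, 80S and polysome, with 3 replicates each). Titles give SK-MEL-28 throughout and were taken as correct, though the samples' cell-line entries are 26 differently numbered names.

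Histones package DNA: H2A, H2B, H3 and H4 form the nucleosome core, and H1 binds the linker between cores. Most cluster genes are transcribed during S phase, when new DNA must be packaged, and their mRNAs end in a stem-loop bound by the protein SLBP in place of a poly(A) tail. The kit used for these libraries starts from total RNA, so a poly(A) tail is not needed for a transcript to be sequenced. H1f0 and H1f10 differ from the rest in being replacement linker genes that are read outside S phase with a poly(A) tail.

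The row names are mouse-style symbols, although the cells are human, and no source used here states which reference lies behind them. Histone genes of 1 family are near-identical copies, so a read can fall on the row of a sister gene or be set aside as not unique. Values below therefore belong to rows of the table and not with certainty to single human genes. Of all counts of the salubrinal and the control library, 48.6 and 52.6% were set aside as not unique, 3.54 and 9.50% as ambiguous and 27.3 and 14.4% as not aligned, and the part of these shares in the histone values was not tested. Of the 61 names, 56 matched 1 gene of the human RefSeq table by symbol or synonym.

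Promoters are shown for the H2B and H3 rows at either end of the range of treatment ratios in their family, among rows whose human namesake has an entry in the promoter table. The sequences are the 200 bases before the RefSeq start site of that human gene, on the gene's own strand (build GRCh38.p14), and capitals mark the TATA box letters TATAAA, the CCAAT box letters and the octamer ATTTGCAT on either strand, merged where they overlap.
H2BC8 (row H2bc8, the highest H2B ratio; chr6:26216689-26216888, minus strand): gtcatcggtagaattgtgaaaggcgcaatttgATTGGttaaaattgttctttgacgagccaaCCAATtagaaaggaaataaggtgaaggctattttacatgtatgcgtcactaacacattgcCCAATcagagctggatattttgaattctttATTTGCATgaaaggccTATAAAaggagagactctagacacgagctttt
H2BC15 (row H2bc15, the lowest H2B ratio; chr6:27838369-27838568, plus strand): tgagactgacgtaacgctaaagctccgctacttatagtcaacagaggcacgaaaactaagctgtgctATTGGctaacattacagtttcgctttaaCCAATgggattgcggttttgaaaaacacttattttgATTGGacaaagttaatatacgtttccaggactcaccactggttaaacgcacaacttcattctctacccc
H3C2 (row H3c2, the highest H3 ratio with a promoter entry; chr6:26032100-26032299, minus strand): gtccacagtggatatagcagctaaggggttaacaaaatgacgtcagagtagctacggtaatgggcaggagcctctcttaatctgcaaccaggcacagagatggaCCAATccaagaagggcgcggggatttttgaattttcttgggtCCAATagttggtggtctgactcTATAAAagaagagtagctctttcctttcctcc
H3C7 (row H3c7, the lowest H3 ratio; chr6:26250636-26250835, minus strand): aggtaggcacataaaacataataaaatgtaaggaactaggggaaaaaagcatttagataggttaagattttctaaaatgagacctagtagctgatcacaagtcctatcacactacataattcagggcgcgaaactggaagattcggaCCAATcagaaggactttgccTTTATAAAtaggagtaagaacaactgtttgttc

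The shown promoters share CCAAT, the element bound by the factor NF-Y, while the octamer, bound by OCT1 in H2B promoters, stands in that of H2BC8 alone among them. Over the 250 bases before the start, 51 histone promoters could be searched, and 45 (88.2%) held CCAAT on either strand, against 33.0% of all 27305 genes in the promoter table. TATAAA stood in 36 of the 51 (70.6%), against 11.1% of all promoters. The octamer ATTTGCAT stood in 12 of 14 H2B and 9 of 13 H2A promoters, in 1 of 11 H3 promoters and in none of 5 H1 and 8 H4 promoters, against 1.66% of all promoters. CCAAT was found in all 43 H1, H2A, H2B and H3 promoters but in 2 of the 8 H4 ones. A match to these letters is a description of the window and not a site shown to be bound. Whether the letters go with the treatment ratios was not tested, and the row H2bc15 held only 9 counts with salubrinal and 69 in control.

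Histone cluster rows were lower with salubrinal in all 5 families when libraries were scaled by trimmed means (TMM), while scaling by the total of gene-row counts put 4 of the 5 families above 0. Together the 61 rows held 18030 counts in the salubrinal library and 17157 in the control library, or 1270 and 1970 CPM (counts scaled by TMM to a common library size), a log2 ratio of -0.63 (interval -0.66 to -0.60). The summed H2A rows had the lowest log2 ratio, -0.94 (-1.04 to -0.84), with the H3 rows close by at -0.93 (-1.02 to -0.83). H2B stood at -0.59 (-0.63 to -0.54), H4 at -0.51 (-0.59 to -0.44) and H1 at -0.49 (-0.57 to -0.40). The intervals of H2A and H3 overlapped each other and lay below those of H1, H2B and H4. This grouping of H1 rests on the row H1f2: without it the H1 sum was -0.83 (-0.95 to -0.72), which overlaps the interval of H2A. In bulk RNA fewer cells in S phase and less histone RNA per cell cannot be told apart.

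Of the 42 rows with at least 50 counts over both libraries, 40 had a log2 ratio below 0, where 48% of all 10614 such rows did. A ratio of 2-fold lower or beyond was found for 12 of the 42 (28.6%), against a background of 3.79%, and none (0) reached 2-fold higher, against 2.71%. The median over the 42 rows was -0.60, and over all rows 0.02, with the 5th and 95th percentiles of all rows at -0.90 and 0.83. For 31 of the 42 rows the interval lay wholly below 0, and for the other 11 it spanned 0. The same share over all rows was not computed, and these intervals narrow as counts rise. Of the 12 rows past 2-fold lower, 8 had an interval wholly under -1, a share that was not computed over all rows either. H4c14 at -1.002 and H2ac20 at -1.04 stood just inside the 2-fold line, and H2bc18 at -0.99 just outside it.

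The direction rests on the scaling. The row CT010467.1 took 12.8% of gene-row counts in the salubrinal library and 56.7% in the control library, so histone rows made up 0.176% of gene-row counts with salubrinal and 0.142% without, but 0.202 and 0.328% once that row was left out. Scaling by the total of gene-row counts shifted the median log2 ratio over all rows by 0.93, with a summed histone ratio of 0.31. Relative to the median of all rows the histone median was lower by 0.62 under that scaling and by 0.63 under TMM, and 40 of the 42 rows lay below the median of all rows under both.

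**Figure D1:**
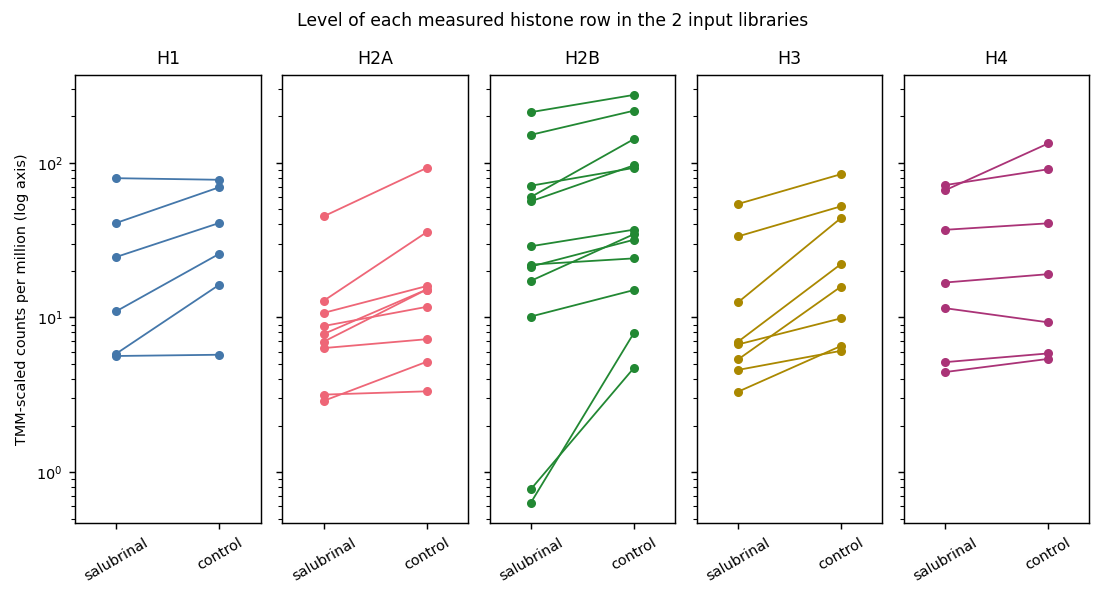
Level in CPM (log axis) of each of the 42 histone rows with at least 50 counts, in 5 panels by family, with the salubrinal library on the left and the control library on the right of each line. Under this scaling lines run upward from salubrinal to control for 40 rows, and H1f2 and H4c6 are the exceptions.

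The linker histone rows split by gene. H1f2, the row of linker histone H1.2, held 1130 counts with salubrinal and 677 in control, which is 79.6 and 77.7 CPM and a log2 ratio of 0.03 (-0.10 to 0.17). H1f5 had 80 and 50 counts and a ratio of -0.03 with a wide interval, -0.55 to 0.51, that holds the summed H1 ratio as well as the median of all rows. H1f3 had 350 counts in the salubrinal library and 356 in control (-0.73, -0.95 to -0.51), and H1f4 had 581 and 606 (-0.76). Both replacement linker rows were more than 2-fold lower: H1f0, which accumulates in differentiated and resting cells, had 156 counts with salubrinal and 225 without (-1.22, interval -1.54 to -0.93). H1f10 had 83 and 142 counts (-1.45, -1.89 to -1.08). The interval of H1f10 and that of H1f2 were far apart. As a share of H1 counts, which no scaling changes, H1f2 made up 47.3% (45.2 to 49.3) with salubrinal and 32.9% (30.9 to 34.97) in control, and H1f0 6.52 and 10.9%. The 4 other H1 rows held 11 counts with salubrinal and 2 in control in all, 10 and 2 of them on H1f6, a row named for a testis linker histone.

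All 9 measured H2A rows had ratios below 0, against 48% of all rows, and 3 (33.3%) were at least 2-fold lower, against 3.79%. H2ac20 held the most counts of the family, 640 with salubrinal and 807 in control. H2ac21, its neighbour in the human cluster on chromosome 1, had 182 and 310 counts and the lowest ratio of the measured H2A rows, -1.46 (-1.75 to -1.20). H2ac15 had 99 counts in the salubrinal library and 132 in control (-1.10). H2ac1, named for a testis form of H2A, had 111 and 132 counts (-0.94). Beyond these the ratios came closer to 0, and the intervals of the last 2 given here spanned 0. H2ac10 had 41 and 45 counts (-0.80), and H2ac8 had 152 and 139 (-0.57). H2ac6 had 125 counts with salubrinal and 102 without (-0.40). H2ac12 had 90 and 63 (-0.19, interval -0.67 to 0.30), and H2ac4 had 45 and 29 (-0.07, -0.78 to 0.65). The other 6 H2A rows held 20 counts with salubrinal and 18 in control together, and 3 of them had none in either library.

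H2B rows took about as many counts as the other 4 families together, 51.5% of histone counts with salubrinal and 49.8% in control. H2bc14 held 3021 counts with salubrinal and 2396 in control, or 213 and 275 CPM, a log2 ratio of -0.37 (-0.45 to -0.29). H2bc3 held 2155 and 1894 counts (-0.52, -0.61 to -0.43). H2bc21, whose human namesake is known to make polyadenylated as well as stem-loop mRNA, held 1010 and 808 (-0.38). These well-covered rows lay between the median of all rows and the 2-fold line. H2bc4 did not: it held 854 counts with salubrinal and 1240 in control, a ratio of -1.24 (-1.37 to -1.12), and its share of H2B counts was 9.20% (8.62 to 9.80) with salubrinal and 14.5% (13.8 to 15.3) without. H2bc6 had 801 and 839 counts (-0.77). H2bc18 had 245 and 301 (-0.99). H2bc7, H2bc8, H2bc9 and H2bc12 had ratios of -0.57 or above. H2bc7 had 410 counts with salubrinal and 322 without (-0.35), and H2bc8 had 312 and 210 (-0.13, interval -0.39 to 0.13). H2bc9 had 303 and 277 (-0.57), and H2bc12 had 144 and 131 (-0.56).

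The 2 lowest ratios of all 42 rows belonged to H2B rows with few counts. H2bc15 had 9 counts with salubrinal and 69 in control, 0.634 and 7.92 CPM, a log2 ratio of -3.32 (-4.83 to -2.64). H2bc11 had 11 and 41 counts, a ratio of -2.36 (-3.71 to -1.62). Both intervals lay below that of H2bc4. H2bc1, named for a testis form of H2B, had 7 and 18 counts, under the minimum for a ratio to be counted, and H2bc13 had 4 and 4.

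The measured H3 rows ranged from -0.40 to -1.80. H3c4 held 770 counts with salubrinal and 736 in control (-0.64, -0.79 to -0.49), and H3c3 475 and 456 (-0.64, -0.83 to -0.46). H3c7 held 178 and 383 counts, 12.5 and 44.0 CPM, a ratio of -1.80 (-2.08 to -1.55). The interval of H3c7 thus lay wholly below those of H3c3 and H3c4. H3c6 had 99 counts with salubrinal and 193 without (-1.64, -2.03 to -1.31), and H3c8 had 76 and 138 (-1.53, -1.99 to -1.15). As a share of H3 counts, H3c7 made up 9.85% (8.51 to 11.3) in the salubrinal library and 18.2% (16.5 to 19.9) in control, and H3c6 5.48 and 9.16%. The remaining measured rows lay nearer to H3c3 and H3c4. H3c2 had 95 and 86 counts (-0.55), H3c11 had 65 and 53 (-0.40), and H3c10 had 47 and 57 (-0.95). The interval of H3c10, -1.57 to -0.40, overlapped those of H3c3 and H3c4 as well as those of H3c6 and H3c8. H3c1, H3c13, H3c14 and H3c15 held 3 counts with salubrinal and 6 in control together, and 2 of them had none.

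H4 rows lay closest to the median of all rows, apart from H4c14. H4c8 held 1020 counts with salubrinal and 792 in control (-0.34, -0.48 to -0.20). H4c3 had 524 and 354 counts (-0.14), and H4c4 had 239 and 166 (-0.18). H4c6 had 163 and 81 counts and the highest ratio of the 42 rows, 0.30, with an interval of -0.09 to 0.71 that spans 0. H4c11 had 73 counts with salubrinal and 51 without (-0.18), and H4c2 had 63 and 47 (-0.27). H4c14, whose human namesake lies in the cluster on chromosome 1, held 945 and 1163 counts, a ratio of -1.002 (-1.13 to -0.88). It made up 31.1% (29.4 to 32.8) of H4 counts with salubrinal and 43.7% (41.8 to 45.6) in control. Without H4c14 the summed H4 ratio was -0.22. H4c1, H4c9 and H4c12 held 13 and 10 counts together.

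**Figure D2:**
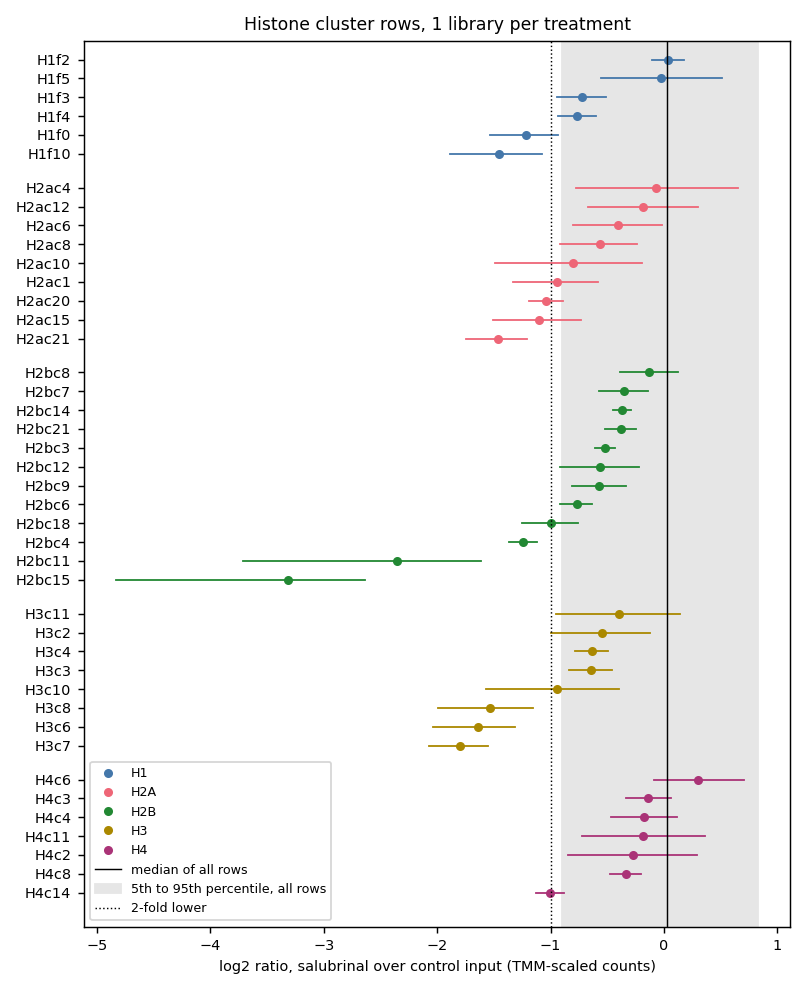
Log2 ratio of salubrinal over control input for the 42 measured rows, ordered within family, with exact 95% binomial intervals as bars. The grey band is the 5th to 95th percentile of all rows (-0.90 to 0.83), the solid line their median (0.02) and the dotted line 2-fold lower, beyond which 12 rows lie.

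Shares of the families within histone counts do not depend on scaling, and they differed little. H2A made up 8.35% (7.95 to 8.76) of histone counts with salubrinal and 10.4% (9.91 to 10.8) in control. H3 made up 10.0% (9.59 to 10.5) with salubrinal and 12.3% (11.8 to 12.8) in control. For both families the intervals of the 2 libraries were apart, with the lower share in the salubrinal library. H1 stood at 13.3% (12.8 to 13.8) and 12.0% (11.5 to 12.5), and H4 at 16.9% (16.3 to 17.4) and 15.5% (14.99 to 16.1). H2B stood at 51.5% (50.8 to 52.2) with salubrinal and 49.8% (49.1 to 50.6) in control. H1, H2B and H4 thus had the higher share in the salubrinal library, each by under 2 percentage points and with intervals that were also apart. For H1 this rests on H1f2: with that row left out of the family and of the total, H1 made up 7.46% (7.07 to 7.87) with salubrinal and 8.38% (7.96 to 8.81) in control. For H2B it rests on H2bc14, without which the shares were 41.7% (40.95 to 42.5) with salubrinal and 41.7% (40.9 to 42.5) in control. Without H4c14 the H4 shares were 12.3 and 9.38%.

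**Figure D3:**
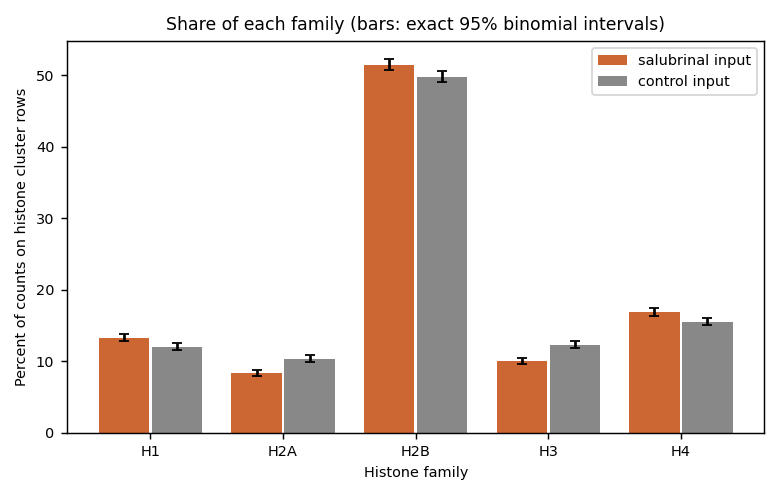
Percent of all counts on histone cluster rows that fell on each family, with salubrinal bars left of control bars and exact 95% binomial intervals. H2A and H3 take a smaller share with salubrinal (8.35 and 10.0%) than in control (10.4 and 12.3%), and H1, H2B and H4 a larger one, which for H1 rests on the row H1f2 and for H2B on H2bc14.

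Position in the human genome was taken from the RefSeq gene of the same name. The 5 measured rows with a namesake on chromosome 1 were H2ac20, H2ac21, H2bc18, H2bc21 and H4c14, and their median log2 ratio was -1.002. Their summed ratio was -0.87 (-0.94 to -0.80). The 34 measured rows with a namesake on chromosome 6, where the main human cluster lies, had a median of -0.55 and a summed ratio of -0.56 (-0.60 to -0.53). The 2 intervals of the sums did not overlap, but H2bc21 at -0.38 lay among the higher rows. Namesakes within 1000 bases of each other, 7 pairs in all, differed in their log2 ratios by 0.42 to 2.22. The widest gap was between H2ac15 and H2bc15, and the next was between H3c7 at -1.80 and H2bc9 at -0.57.

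A further 12 rows carry older or unnumbered histone names that the symbol pattern leaves out, and 6 of them had at least 50 counts. They were looked at after the values of the others were seen. All 6 had ratios below 0, against 48% of all rows. Their median was -0.55 and their summed ratio -0.59 (-0.65 to -0.53). H2bu2 held the most counts, 1579 with salubrinal and 1190 in control (-0.30), and Hist1h2al had the lowest ratio, -1.11, with 266 and 355 counts. With them added, 14 of 48 rows (29.2%) were at least 2-fold lower, against 3.79% of all rows.

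Histone variants that can take the place of the cluster histones were lower in most rows. Of 9 listed, 7 were measured, with a median of -0.48 and a summed ratio of -0.46 (-0.51 to -0.41). Ratios below 0 were found for 5 of the 7 (71.4%), against 48% of all rows. Past 2-fold lower were 2 (28.6%), against 3.79% of all rows, and 0 were past 2-fold higher, against 2.71%. H2ax, whose phosphorylated protein marks DNA breaks, had 57 counts with salubrinal and 124 in control (-1.78, -2.30 to -1.36). H2aj had 883 and 1245 counts (-1.20, -1.33 to -1.07). The H3.3 rows lay on the other side of 0, H3f3b with 1796 counts with salubrinal and 937 without (0.23, 0.12 to 0.35) and H3f3a with 80 and 43 (0.18). The interval of H3f3b lay above those of the measured H3 cluster rows except H3c11 (-0.96 to 0.14), which it overlapped.

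The machinery that makes and carries histones lay near the median of all rows. Genes for transcription and 3′ processing of histone mRNA had a median of 0.03 over 15 measured of 17 listed, and a summed ratio of -0.12. None was 2-fold apart, against 2.71% of all rows past 2-fold higher and 3.79% past 2-fold lower. At such low shares a short list may well hold none. Slbp, the stem-loop binding protein, had 232 counts with salubrinal and 131 in control (0.12, -0.20 to 0.44), and Npat, the S-phase activator of histone transcription, 447 and 274 (0.0013, -0.22 to 0.22). Lsm11, of the U7 snRNP that cuts histone mRNA, and Hinfp, an activator of H4 genes, had the highest ratios at 0.50 and 0.43. Snrpb and Lsm10 had the lowest at -0.47 and -0.44. Slbp and Npat were named for their role after their values were seen. Chaperone and import genes had a median of -0.01 over 19 measured of 20 listed. None of these was 2-fold apart either, against the same shares of all rows. The related H3-H4 chaperone rows Asf1a and Asf1b lay at opposite ends: Asf1a had 322 counts with salubrinal and 106 in control (0.89, 0.58 to 1.23), and Asf1b, the form tied to dividing cells, had 64 and 69 (-0.79, -1.33 to -0.30). Nap1l1, an H2A-H2B chaperone, stood at 0.30 and the importin Ipo4 at -0.73.

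Genes of S-phase entry and DNA replication had a median of -0.40 over 25 measured of 26 listed, between the histone rows and the median of all rows. Of the 25, 18 (72%) were below 0, against 48% of all rows, with 2 (8%) past 2-fold lower, against 3.79%, and 0 past 2-fold higher, against 2.71%. Cdt1, which licenses replication origins, had 14 counts with salubrinal and 36 in control (-1.89, -3.07 to -1.14), and Pold1, of DNA polymerase delta, 104 and 173 (-1.42). Rrm1, a ribonucleotide reductase subunit, was among the highest at 0.20. The summed ratio of the list was -0.30 (-0.33 to -0.27), and its interval lay above that of the summed histone rows.

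**Figure D4:**
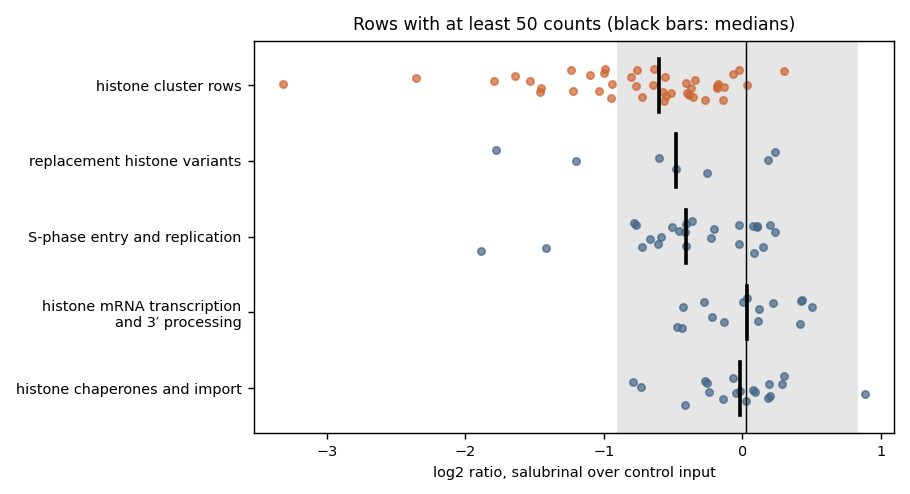
Log2 ratios of salubrinal over control input for the 42 histone cluster rows and 4 related gene lists, 1 point per row with at least 50 counts, spread vertically for legibility. Black bars are medians (-0.60, -0.48, -0.40, 0.03 and -0.01 from top to bottom), the thin line is the median of all rows and the grey band their 5th to 95th percentile.

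Pigment cell markers were present in both input libraries, with 18821 counts on 7 rows with salubrinal and 23590 in control, though Mlana was at 0 in both and Tyrp1 had 0 and 5 counts. Fibroblast, keratinocyte and leukocyte markers held 54, 66 and 4 counts with salubrinal and 45, 29 and 1 in control, with Col1a1, Krt1 and Cd3e among those at 0 in both. The reference behind these mouse-style rows is not stated, so a count of 0 is not shown to mean an absent transcript. The summed pigment markers had a log2 ratio of -1.03, with most counts on Pmel, 13535 with salubrinal and 16793 in control (-1.02). Of 5 measured pigment rows 4 were past 2-fold lower, against 3.79% of all rows, while Tyr stood at -0.04 (-0.16 to 0.08). The part of cell state in the histone values was not tested.

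In the gradient fraction files, whose rows have human symbols, histone rows were barely covered. Of 80 rows with histone cluster and linker names, 39 had no count in any of the 24 files, and all 80 together held 298 counts. Rows named for pseudogenes were not all left out, and HIST2H3DP1 is among the 39. HIST1H1E, the older name of the gene for linker histone H1.4, took 182 of them (61.1%), and no other gene overlaps it in the RefSeq table. The next rows were HIST1H1B with 21 counts, H1FX with 13, HIST1H1C with 10 and HIST1H2BC with 8. The files of treated cells held 0 to 19 histone counts each (median 2.5) and those of control cells 2 to 40 (median 19.5). Outside ribosomal RNA rows these files held 864 to 18686 counts with salubrinal and 5495 to 23679 in control, so the totals move with depth and no comparison between treatments was made. HIST1H1E held 0 to 11 counts per file with salubrinal (median 2) and 1 to 23 in control (median 11.5).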

How the data were processed

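The authors deposited read counts per gene row, not normalized, for 2 input and 24 fraction samples. A stranded kit for total RNA was used, per the labels' protocols. The submitters' processing notes name STAR, HTSeq 0.5.3p3 and the human build hg19, beside FastQC 0.11.5, DESeq and SAMtools 0.1.19.24. No source used here gives the annotation, the strand setting or the reference behind the mouse-style input rows. Closing rows without a gene name were left out, and gene rows held 7.06% of all counts in the salubrinal and 5.94% in the control input.

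Counts were scaled by TMM (edgeR 4.0.16, R 4.3.3), and log2 ratios of salubrinal over control used a prior count of 2 on scaled counts. The ratio step was checked on simulated counts drawn from the same profile for both libraries, apart from rows changed by a set amount. No row there differed between libraries as CT010467.1 does, so the check does not bear on the choice of scaling. Intervals are exact conditional binomial ones (SciPy 1.17.1). With 1 library per treatment, no p-value was computed. Medians and counts past 2-fold used rows with at least 50 counts over both libraries, and sums used every row. Every such histone row is named, and of each related list the 2 highest and 2 lowest, apart from 1 row that is not reported here. Members, lists and the naming rule were chosen with earlier results of these data known. CPM are not divided by gene length, so rows of different length are not compared in level. Alternatives were other scalings (totals, DESeq2 1.42.0 size factors, TMM without ribosomal RNA and mitochondrial rows), a prior count of 0.5, minimums of 10 and 200 counts, a 1.5-fold line and sums without the row with most counts. Added after the data were seen were the total without CT010467.1, family shares without the row with most counts and the 12 further histone-named rows. Promoters and human names are from RefSeq (GRCh38.p14), used for names, neighbours and the printed sequences only.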

Additional observations from a re-analysis of the deposited data

How the results depend on the processing

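Scaling by the total of gene-row counts changed the sign of most results. The summed log2 ratio was then 0.31 for all histone rows, 0.45 for H1, -0.0034 for H2A, 0.36 for H2B, 0.015 for H3 and 0.43 for H4, and the median over histone rows was 0.33, with 1 row past 2-fold higher and 2 past 2-fold lower. The medians of the lists were 0.95 for histone mRNA processing, 0.46 for replacement variants, 0.93 for chaperones and 0.53 for S phase, and the median of all rows was also 0.95. Under that scaling 45.5% of all rows lay past 2-fold higher and 0.283% past 2-fold lower, against 2.71 and 3.79% under TMM. All 42 named histone rows moved beyond their intervals with it, and none of the 42 did under the other 3 scalings or the prior count of 0.5.

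The total without CT010467.1, added after the data were seen, gave sums of -0.70 for all histone rows and -0.65 for H2B, and medians of -0.67 for histone rows, -0.54 for replacement variants, -0.082 for chaperones, -0.47 for S phase and -0.035 for processing, which thereby changed sign. Leaving out the row with most counts gave sums of -0.68 for all rows and for H2B, -0.83 for H1 (without H1f2), -1.11 for H3 (without H3c4) and -0.22 for H4 (without H4c14). The same step, added for shares after the data were seen, changed the H1 share difference, salubrinal minus control, to -0.92 percentage points, against 1.27 with H1f2, and moved those of H2A (-0.96), H2B (0.051) and H4 (2.88). A minimum of 10 counts gave a histone median of -0.57 and 1 row past 2-fold higher, and one of 200 counts gave -0.64 and a chaperone median of 0.076, which changed sign. At 1.5-fold 21 rows were lower and 0 higher, and the share of all rows past that line was not computed. Size factors from DESeq2, TMM without ribosomal RNA and mitochondrial rows and the prior count of 0.5 kept every listed sum, median and count within its interval or at its main count.

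No paired analysis was possible because the input libraries carry no replicate number and no result here comes from a test. With 1 library per treatment the spread between cultures is unknown, and the intervals cover counting error only. Rows under 100 counts, such as H2bc11, H2bc15 and H2ac4, have intervals over 1 log2 unit wide.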
